A study of Mus musculus with 2 samples.

Results

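Cytosolic ribosomal protein genes encode the proteins that, with ribosomal RNA, build the large and small subunits of the cytoplasmic ribosome. Members were taken by name: symbols that begin with Rpl or Rps and a digit, with Rplp0, Rplp1, Rplp2 and Rpsa, leaving out symbols with -ps (pseudogenes) and the Rps6k kinases, at a minimum of 1000 unique molecular identifiers (UMIs, tags that count single RNA molecules) over both libraries. Of 47729 genes in the files, 92 met the name rule and 84 also met the minimum. By name, 50 belong to the large and 34 to the small subunit. Among the 84, 77 are the standard ribosomal proteins and 7 are not: the paralogs Rpl7l1, Rpl22l1, Rpl36al and Rps27l, the near-identical copies Rps27rt and Rpl37rt, and Rps19bp1, which encodes a protein that binds RPS19 and is no ribosomal protein. The 8 left out by the minimum were Rpl6l (729 UMIs), Rps4l (623), Rps3a3 (421), Rpl3l (316), Rps3a2 (192), Rpl39l (85), Rps12l1 (1) and Rpl10l (0). The members just inside it were Rps19bp1 (2272 UMIs), Rpl37rt (2452) and Rps27rt (3069).

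The study set out to define, by single-cell sequencing, the myeloid cells that arise when mouse bone marrow is cultured beside human mesenchymal stromal cells (MSC). Femur marrow of C57BL/6NCrljOri, H-2b mice was cultured in both groups with 40 ng/mL GM-CSF, a growth factor for granulocytes and macrophages, for 5 days. In the group without coculture, CD11bhiLy6Chi cells were sorted from a culture in RPMI1640. In the coculture group, CD11bmidLy6Cmid cells were sorted from a culture in DMEM in which MSC, kept in inserts with 0.4 µm pores and preincubated for 24 h, sat above the marrow at 1 MSC to 5 marrow cells. CD11b is an integrin of myeloid cells and Ly6C a surface protein of monocytes and granulocytes; a viability dye was used in both sorts. The labels give neither the number of mice nor whether marrow was pooled.

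With 1 library in each group nothing here was replicated, and the 95% intervals cover counting error only. The sort gate, the coculture, the medium and the library differ together and cannot be told apart. After leaving out barcodes with fewer than 500 genes or more than 10% mitochondrial UMIs, 1817 of 2180 barcodes were kept without coculture (27784963 UMIs, median 7016 per cell) and 3005 of 3134 in the coculture (29089241 UMIs, median 6031). The median mitochondrial share was 2.37% and 1.52%. The libraries shared 4 barcodes, 2 of them among those kept. Doublets were not called or removed, so droplets with more than 1 cell remain. Cells were classed by clustering on all other genes, so the members did not enter the clustering. The naming of clusters scaled marker UMIs to a total that includes the members. No cluster was named monocyte-like, although the sort without coculture was on high Ly6C: it held mainly macrophage-like and neutrophil-like cells, with 30 progenitor-like cells and part of an unnamed cluster. The coculture library held B lineage-like, eosinophil-like, neutrophil-like, basophil or mast cell-like, mature dendritic cell-like, T or NK cell-like, megakaryocyte or platelet-like and granulocyte-monocyte progenitor-like (here progenitor-like) cells, 9 stromal or endothelial cell-like cells led by Timp1 and Sparc, and the rest of the unnamed cluster.

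Ribosomal protein mRNAs carry a stretch of pyrimidines (C or T bases) at their very start, the TOP sequence, through which the growth regulator mTORC1 controls their translation as a group. Their transcription is tied to cell growth, and dividing cells and resting lymphocytes are known for a large share of these mRNAs while mature neutrophils keep few ribosomes. Outside the stalk, a ribosome holds a single copy of each protein, and surplus protein is degraded.

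The starts of 10 members whose values are discussed here are shown with the C or T bases around them. They include 3 of the members with the lowest ratios of coculture to no coculture (Rplp0, Rps7, Rps19). Another 3 are among those with the highest (Rps26, Rpl38, Rpl39), and the rest are both genes of the Rps27 and Rpl22 paralog pairs. Each line holds 15 bases before and 15 bases from the RefSeq start, on the strand of the gene (GRCm38.p6). Capitals mark the longest run of C or T, and the first where runs are equally long.
Rplp0: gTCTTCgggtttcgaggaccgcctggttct
Rps7: gCTTCCggtttccacccacctacttccgct
Rps19: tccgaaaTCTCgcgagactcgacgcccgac
Rps26: gtcgggcaagccgccggaTCCTCTTTCgag
Rpl38: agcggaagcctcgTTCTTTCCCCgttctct
Rpl39: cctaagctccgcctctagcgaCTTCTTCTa
Rps27: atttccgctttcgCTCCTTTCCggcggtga
Rps27l: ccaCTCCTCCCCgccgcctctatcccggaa
Rpl22: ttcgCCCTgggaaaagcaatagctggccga
Rpl22l1: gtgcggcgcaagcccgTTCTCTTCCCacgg
The windows lie at chr5:115559452-115559481 (Rplp0), chr12:28635939-28635968 (Rps7), chr7:24884577-24884606 (Rps19), chr10:128626492-128626521 (Rps26), chr11:114668565-114668594 (Rpl38), chrX:37085208-37085237 (Rpl39), chr3:90213634-90213663 (Rps27), chr9:66946071-66946100 (Rps27l), chr4:152325711-152325740 (Rpl22) and chr3:28805493-28805522 (Rpl22l1). Rps7, Rps26, Rpl39 and Rps27 are on the minus strand. The run measured 5 bases in Rplp0 and in Rps7, 4 in Rps19 and in Rpl22, 8 in Rpl39, 9 in Rps26, Rps27 and Rps27l, and 10 in Rpl38 and Rpl22l1. The annotated start can lie some bases away from the start used in these cells, which the files do not show. In Rplp0, Rps7, Rps19, Rps27l and Rpl22 the marked run lies wholly before the annotated start, outside the annotated mRNA. Rps7 also holds unmarked runs of the same length, the last of which lies after the start, inside the annotated mRNA. The capitals thus do not mark TOP sequences as such.

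Of the 84 members, 64 had a RefSeq window of 250 bases before to 50 bases after the start. A run of at least 8 C or T within the 50 bases centred on the start was present in 29 of 64 (45.3%), against 19.5% of 27025 windows of all genes. The sequence CCGGAAG, a core bound by ETS factors, was present on either strand in 24 of 64 (37.5%, against 9.08%), and TATAAA in 6 (9.38%, against 14.1%). Neither motif contains the other. For a member with several windows the one nearest the annotated gene start was taken, and for all genes the first by position. The percentages of members and of all genes thus rest on starts chosen in different ways. The 29 members with a run of at least 8 had a median log2 ratio between the libraries of 0.63, and the 35 without had 0.65.

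The members took up a larger share of the coculture library. Their summed UMIs were 16.2% of all UMIs without coculture (interval 16.218 to 16.245%) and 24.4% in the coculture (24.421 to 24.453%), a 1.51-fold difference (log2 ratio 0.59). Over single cells without coculture the share ran from 0.983% to 43.9%, with a median of 11.7% and quartiles of 6.48% and 15.9%. Over single cells in the coculture it ran from 0.822% to 48.8%, with a median of 25.7% and quartiles of 19.7% and 30.1%. The full ranges overlap, and the upper quartile without coculture lies below the lower quartile in the coculture. Cells with under 10% ribosomal protein UMIs were 775 of 1817 without coculture (42.7%, 40.4 to 45.0%, Clopper-Pearson) and 143 of 3005 in the coculture (4.76%, 4.03 to 5.58%).

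The size of the difference depended on how cells were weighted. The macrophage-like cells were 31.1% of the kept cells without coculture and held 64.8% of their UMIs. With each cell weighted equally the log2 ratio of the share was 1.04, with medians over cells it was 1.14, and in cells of 3000 to 10000 UMIs it was 1.40. In the barcodes left out, which mostly exceeded the mitochondrial limit, members were 5.61% of UMIs without coculture and 8.89% in the coculture.

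Gene by gene, 83 of 84 members were higher in the coculture and 1, Rplp0, was lower, in CPM (UMIs summed over the kept cells and scaled to a library total of 1000000). The interval of the ratio lay above 0 for 82 members and below 0 for 1. At 2272 to 322498 UMIs per member these intervals are narrow, and no share of all measured genes is given beside these 2 counts. They are therefore not read as a result about the members. All 84 passed the filter on low values, a CPM of at least 10 in 1 of the libraries, as did 8668 genes in all. The members' median log2 ratio was 0.64, against 0.03 over all measured genes, and it was 0.68 for large-subunit and 0.59 for small-subunit names. At least 1.5-fold higher in the coculture were 48 members (23% of all measured genes passed the same fold) and at least 1.5-fold lower were 0 (21.8% of all measured genes). With UMIs scaled by TMM factors, which lowered the median of all genes to -0.13, the members' median was 0.50 and 26 passed 1.5-fold.

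**Figure D1:**
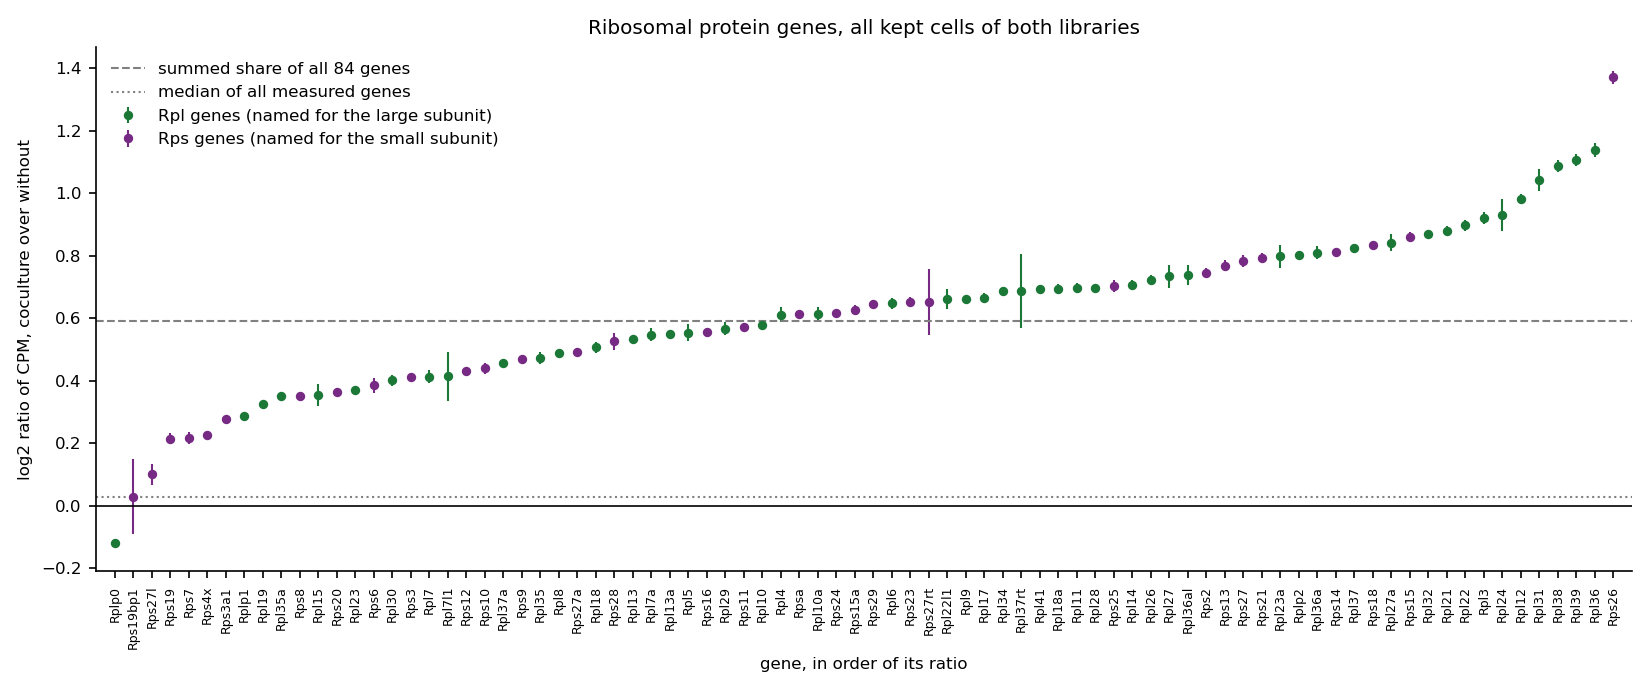
Log2 ratio of CPM (coculture over without coculture) for 82 of the 84 genes, in rising order, with 95% counting intervals as bars. Green marks Rpl and purple Rps genes; the dashed line is the summed share (0.59) and the dotted line the median of all measured genes (0.03). The points run from -0.12 (Rplp0) to 1.37 (Rps26), and 81 of those drawn lie above 0.

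Among the 6 members at least 2-fold higher (12.7% of all measured genes were), Rps26 had the highest ratio. Rps26 (chr10:128624534-128626747), whose protein sits at the mRNA exit of the small subunit and whose loss of 1 copy causes Diamond-Blackfan anemia in humans, was at 875 CPM in the library without coculture and 2263 CPM in the other (log2 ratio 1.37, interval 1.35 to 1.39). Rpl36 (chr17:56613416-56614243), a surface protein of the large subunit, was at 864 and 1902 CPM (1.14). Rpl39 (chrX:37082520-37085402), a very small protein lining the exit tunnel, was at 1155 and 2489 CPM (1.11). The intervals of these 3 all lie above the ratio of the summed share. Rpl38 (chr11:114668524-114672331), known for a role in translating Hox mRNAs in the embryo, was at 1183 and 2515 CPM (1.09). Rpl31 (chr1:39367842-39371911), at the rim of the exit tunnel, was at 319 and 658 CPM (1.04). The annotation holds 22 pseudogenes named for it, as many as for Rps12 and more than for any other member. The counts of Rpl31 and Rps12 are therefore less certain than most.

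At the other end, Rplp0 (chr5:115559467-115563727), the base of the ribosomal stalk that recruits elongation factors and a common reference gene in PCR, was at 3842 CPM in the library without coculture and 3532 CPM in the other (log2 ratio -0.12, interval -0.13 to -0.11); with each cell weighted equally its ratio was above 0. Rps19bp1 (chr15:80260615-80264315) was at 39.6 and 40.3 CPM (0.03, -0.09 to 0.15), within counting error. Rps27l (chr9:66946086-66949516), a p53-responsive paralog of Rps27, was at 523 and 560 CPM (0.10), and the ratios of Rps27l and Rps19bp1 fell below 0 under TMM factors. Rps19 (chr7:24884371-24889806), the most often mutated gene in Diamond-Blackfan anemia, was at 1579 and 1833 CPM, and Rps7 (chr12:28630854-28635953), also an anemia gene, at 1453 and 1687 CPM, with log2 ratios of 0.21 and 0.22. The intervals of these 5 all lie below the ratio of the summed share (0.59).

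By role, the 3 stalk proteins had unequal ratios. Rplp2, which forms the flexible arms of the stalk with Rplp1, was at 2124 and 3703 CPM (log2 ratio 0.80), Rplp1 at 4893 and 5969 CPM (0.29), and Rplp0, which anchors both, at the values above. Of the 5S particle, which binds and blocks Mdm2 when ribosome assembly fails, Rpl5 was at 612 and 899 CPM (0.55) and Rpl11 at 1861 and 3015 CPM (0.70). Of 9 proteins near the exit tunnel for the nascent chain, 7 were at least 1.5-fold higher, with a median of 0.72 (48 of 84 members and 23% of all measured genes passed that fold): Rpl39 and Rpl31 at the values above, Rpl22 (0.90), Rpl23a (0.80), Rpl26 (0.72), Rpl17 (0.67) and Rpl4 (0.61). Rpl19 (0.33) and Rpl35 (0.47) were below that fold. Of 5 proteins along the path of the mRNA, 3 were at least 1.5-fold higher, a share close to that of all members: Rps26, Rps2 (2318 and 3887 CPM, 0.75), and Rpsa (3149 and 4819 CPM, 0.61), also known as the laminin receptor. Rps3 (0.41) and Rps28 (0.53) were below it.

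Several ribosomal proteins are made fused to ubiquitin or a ubiquitin-like protein. Rps27a, which carries ubiquitin, was at 3556 and 4998 CPM (0.49). Fau, the source of eS30 with a ubiquitin-like protein, was at 4102 and 6394 CPM (0.64). Of 20 genes mutated in Diamond-Blackfan anemia, 10 were at least 1.5-fold higher (48 of 84 members, 23% of all measured genes) and 0 lower (0 members, 21.8%), with a median of 0.59 beside 0.64 over all members.

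The share of UMIs from the members ordered the cell classes. It was highest in T or NK cell-like cells (39.3% of UMIs, 97 cells), followed by B lineage-like (31.6%, 908 cells), megakaryocyte or platelet-like (29.0%, 122 cells) and progenitor-like cells (28.5%, 133 cells), all from the coculture. Basophil or mast cell-like (25.3%, 417 cells) and eosinophil-like cells (25.2%, 478 cells) were next, with quartiles over cells that overlap for most of their range. Mature dendritic cell-like cells were at 19.2% (292 cells). Of the classes from the library without coculture, macrophage-like cells were at 16.5% (565 cells) and neutrophil-like cells at 11.1% (1074 cells), against 15.8% in the neutrophil-like cells of the coculture (457 cells). The highest and lowest class differed by 1.83 on the log2 scale. Median depth also differed, at 1910 UMIs per cell in the T or NK cell-like class, 2866 in the B lineage-like class, 4245 in neutrophil-like cells without coculture and 25885 in macrophage-like cells, and the part of depth in the order was not tested.

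**Figure D2:**
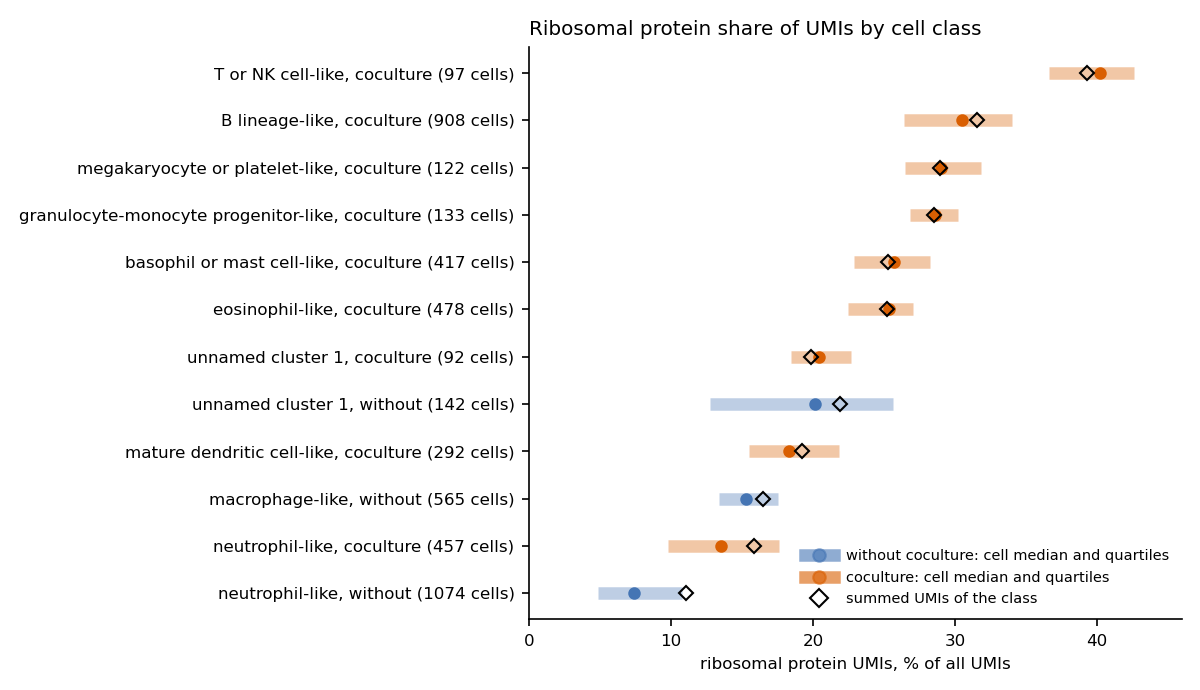
Percent of UMIs from the 84 genes (horizontal axis) for each class with at least 50 cells in a library, named with its library and cell number. Dots are medians over cells, bars run from the lower to the upper quartile, diamonds give the summed UMIs of the class, and colour gives the library. T or NK cell-like cells have a median of 40.2% and neutrophil-like cells without coculture of 7.40%.

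Neutrophil-like cells were the class with the lowest share in each library. Under 10% ribosomal protein UMIs were 69.7% of the 1074 cells without coculture and 26.9% of the 457 in the coculture. Different clusters hold this class: clusters 3, 4 and 7 without coculture, and mostly cluster 2 in the coculture. Cluster 7, led by Ltf, Camp and Ngp, which encode secondary granule proteins of immature neutrophils, had 17.9% without coculture and 15.2% in the coculture. Cluster 3, led by Slfn1 and Lilra6, had 10.4%, and cluster 4, led by Asprv1 with S100a8 and S100a9 among its top genes, had 8.34%. Cluster 2, led by Arg1 (arginase, an enzyme of suppressive myeloid cells) and Cxcl3, had 15.9% over 427 cells. Median mitochondrial shares in cluster 7 were 1.77% without coculture and 0.866% in the coculture. They were 0.985% and 2.53% in clusters 3 and 4 without coculture and 1.03% in cluster 2 in the coculture.

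Over the whole class the log2 ratio of the share was 0.51 (11.1% and 15.8%), and 38 of 84 members were at least 1.5-fold higher in the coculture (18.6% of 7642 genes measured there) and 1, Rpl7l1, was lower by that fold (17.7%). The median log2 ratio was 0.56 over members and -0.04 over all genes measured there. Median depth was 4245 UMIs per cell without coculture and 7609 in the coculture; in cells of 3000 to 10000 UMIs the shares were 8.07% (653 cells) and 13.1% (219 cells). Under a stricter filter (1000 genes, 5% mitochondrial UMIs) the ratio was 0.14, where clustering anew left only 444 of the cells without coculture in the class; with the class names kept it was 0.49 (904 and 413 cells), an alternative added after seeing the data.

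In the 3 single clusters with at least 20 cells from each library the log2 ratio of the share lay between -0.23 and 0.12. Cluster 1 may not be 1 kind of cell across the libraries, since its cells came apart by library in some clusterings. At a finer clustering (resolution 1.2), 133 of its 142 cells without coculture joined a cluster led by Igha, Jchain and Ccl4, and 89 of its 92 coculture cells joined a macrophage-like cluster led by C1qa, Ccl24 and C1qc. Under the stricter filter the cells of both libraries also went mostly to separate clusters. Most of them shared 1 cluster over all barcodes (88 and 92 cells) and with members among the clustering genes (91 and 92). They also did so without the 5% of barcodes with most UMIs (134 and 85). In unnamed cluster 1, led by Igha, Asgr2 and C1qa, the share was 21.9% without coculture (142 cells) and 19.9% in the coculture (92 cells), a log2 ratio of -0.14. That direction was not kept in medians over cells (20.1% and 20.4%) or in cells of 3000 to 10000 UMIs (13.1% over 36 cells and 20.3% over 8 cells). Of the members, 3 were at least 1.5-fold higher (21.8% of measured genes) and 8 lower (20.6%). The median log2 ratio in cluster 1 was -0.16 over members and -0.02 over all measured genes. In progenitor-like cluster 5, led by the primary granule genes Elane, Prtn3 and Mpo, it was 26.3% (30 cells) and 28.5% (133 cells), a ratio of 0.12, which became -0.10 when mitochondrial genes and the 50 most abundant other genes were left out of the total. There 16 members were at least 1.5-fold higher (34%) and 2 lower (13%). The median log2 ratio in cluster 5 was 0.15 over members, below the 0.28 over all measured genes. In cluster 7 the ratio was -0.23 (105 and 22 cells), with 2 members at least 1.5-fold higher (22.3%) and 14 lower (19.4%). Those percentages of measured genes are affected by the floor set for low counts, which lay above the CPM filter in the 22 coculture cells. The median log2 ratio in cluster 7 was -0.22 over members and 0.03 over all measured genes, which the floor also enters. At the clustering used, the macrophage-like cells, which hold most UMIs without coculture, and the B, T, eosinophil, basophil, dendritic and megakaryocyte classes have no counterpart of 20 cells in the other library, so no ratio within them is given. At resolution 1.2 and under the stricter filter 93 and 101 coculture cells also took the macrophage-like name, nearly all in a cluster of their own.

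Dividing each member by the summed members (the ribosomal protein pool) gives a measure that the total of other genes does not enter. Rplp0 was 3.22% of the pool in neutrophil-like cells without coculture and 1.71% in the coculture (log2 ratio -0.91). In cluster 1 it was 2.73% and 1.61% (-0.76), in cluster 5 2.70% and 1.36% (-0.995), and in cluster 7 3.20% and 1.84% (-0.80). Rplp0 was thus a smaller part of the pool in the coculture in each of these sets of cells. In the neutrophil-like cells the libraries contribute mostly different clusters, and in cluster 1 the cells came apart by library in some clusterings. Cluster 7 cells are also among the neutrophil-like cells. Rps7 had log2 ratios of -0.70, -0.60, -0.72 and -0.98 in the same order, and Rps4x, a small-subunit protein encoded on the X chromosome, -0.24, -0.57, -0.45 and -0.61.

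Members that were a larger part of the pool in the coculture in those cells included Rps26 and Rpl41. Rps26 was 0.669% and 0.940% of the pool in neutrophil-like cells (0.49), 0.612% and 1.03% in cluster 1 (0.75), 0.547% and 0.848% in cluster 5 (0.63), and 0.567% and 0.990% in cluster 7 (0.81). Rpl41, which encodes the smallest ribosomal protein, had ratios of 0.64, 0.74, 0.64 and 0.96, although over all kept cells its ratio was 0.10. Rpl38 had 0.47, 0.64, 0.80 and 0.58, and Rpl31 0.62, 0.40, 0.78 and 0.72. Rps2, the mRNA entry protein uS5, differed among the sets, at -0.13, -0.59, 0.26 and 0.51. All 4 sets are drawn from the same 2 libraries, so they are no independent repeats of one another. The counting interval of the pool ratio excluded 0 upward for 41, 37, 37 and 26 of 84 members and downward for 32, 38, 31 and 21. Pool shares add up to the whole pool, so larger parts of some members go with smaller parts of others. These counts also depend on the UMIs in a set, with only 22 coculture cells in cluster 7, and have no counterpart over other genes. They are given as a description only.

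**Figure D3:**
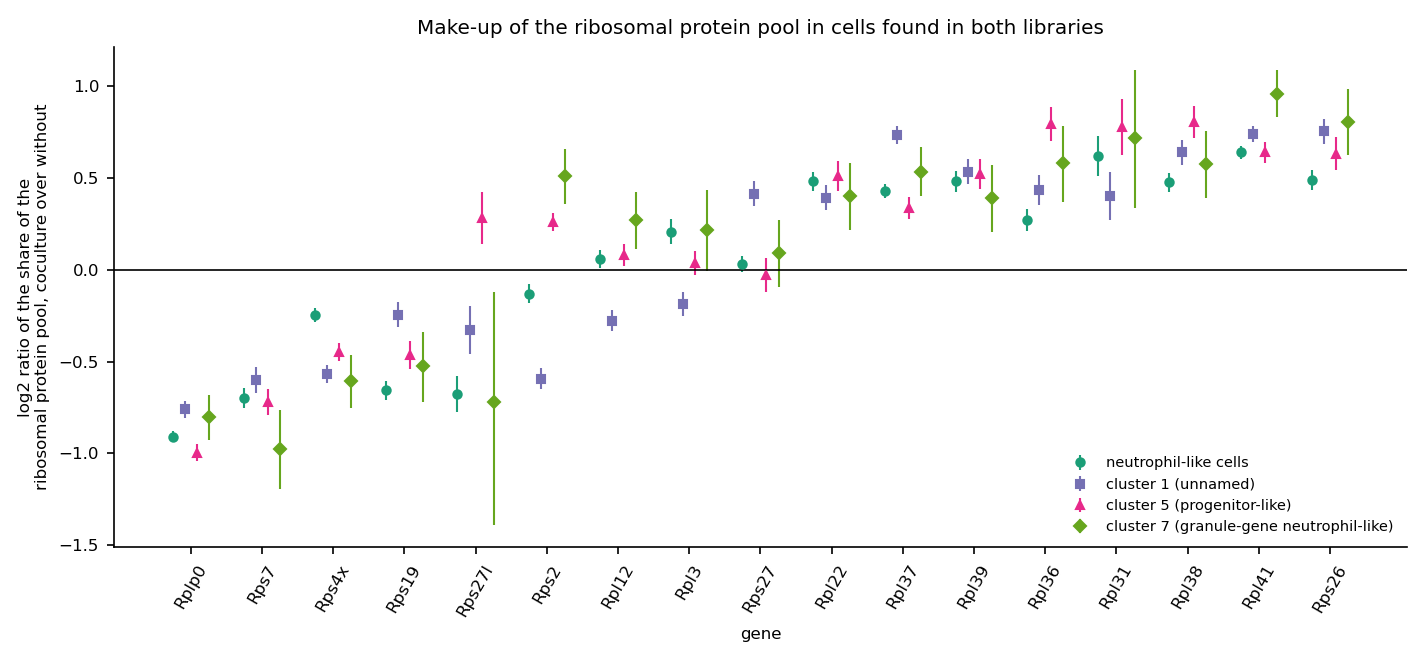
Log2 ratio (coculture over without coculture) of the share of the ribosomal protein pool for 17 genes in 4 sets that hold cells from both libraries, with 95% counting intervals as bars. The neutrophil-like set differs in makeup between the libraries, and cluster 1 came apart by library in some clusterings. Rplp0, Rps7 and Rps4x lie below 0 and Rps26, Rpl41, Rpl38 and Rpl31 above 0 in all 4 sets, while Rps2 and Rps27l lie on both sides.

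Across the 83 members with an annotated transcript, transcript length and the pool ratio had Spearman correlations of -0.24 over all kept cells, -0.33 in neutrophil-like cells, and -0.45, -0.34 and -0.37 in clusters 1, 5 and 7. Genes are not independent replicates and these correlations share both libraries. Among all other genes with a length the same correlations were -0.16, 0.07, 0.18, -0.04 and 0.05. Among other genes no longer than the longest member (Rps20, 3706 bases) and at a CPM of at least 100 in 1 of the libraries they were -0.19, -0.11, -0.03, -0.19 and -0.14. That subset thus shared the sign of the members, weakly in cluster 1, while all other genes did not in neutrophil-like cells and clusters 1 and 7. Length was that of the lowest-numbered protein-coding transcript of each gene, which need not be the one used in these cells.

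Across the 12 class and library groups, members kept unequal parts of the pool. For 25 of 84 the highest and lowest group differed at least 2-fold, for 63 at least 1.5-fold, and the median range was 1.71-fold, with the widest at 6.54-fold (Rps27l). The pool measure has no counterpart over other genes to set beside these counts. A highest over a lowest group also widens with counting error, most for members with few UMIs, such as Rps19bp1 and Rpl37rt among the 25. On the CPM scale 84 of 84 members ranged at least 2-fold, against 94% of genes with at least 1000 UMIs, so this count is near the background.

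**Figure D4:**
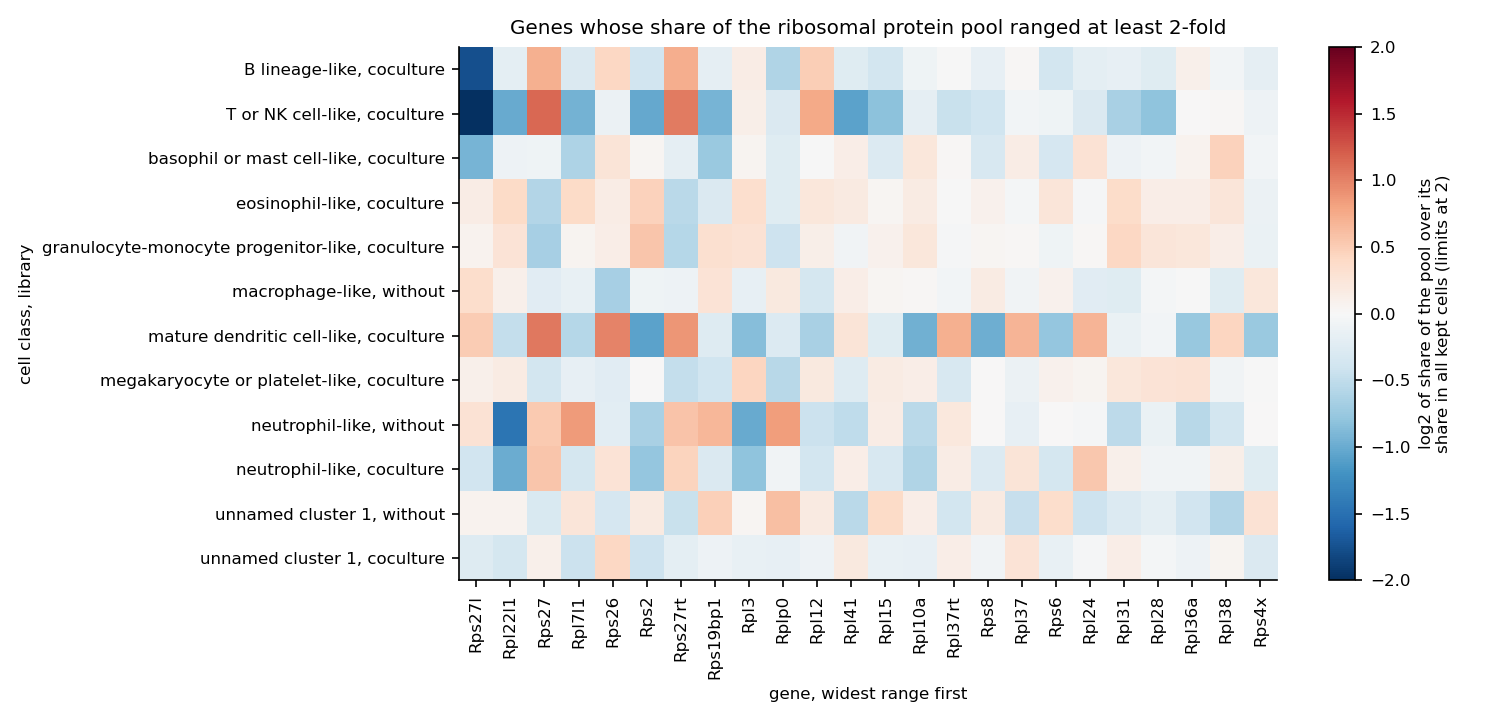
Log2 of each gene's share of the ribosomal protein pool over its share in all kept cells, by cell class and library (rows), for 24 of the 25 genes ranging at least 2-fold (columns, widest first). Red is above and blue below the overall share, and colour stops at 2 on either side, which Rps27l in T or NK cell-like cells (-2.20) exceeds. Rps27 is red in T or NK cell-like, B lineage-like, mature dendritic cell-like and neutrophil-like cells.

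Rps27l had the widest range of pool share (2.71 on the log2 scale). Its paralog Rps27, whose protein occupies the same place on the small subunit, ranged by 1.82, just under Rpl22l1 (1.86). Rps27 was 1.94% of the pool in T or NK cell-like, 1.83% in mature dendritic cell-like, 1.43% in B lineage-like and 1.25% and 1.28% in neutrophil-like cells without and with coculture. It was 0.552% in progenitor-like, 0.582% in eosinophil-like, 0.676% in megakaryocyte or platelet-like and 0.744% in macrophage-like cells. Lymphoid, dendritic and neutrophil-like classes thus stood above the progenitor-like and eosinophil-like ones. Per 100 Rps27 UMIs there were 2.98 Rps27l UMIs (interval 2.2 to 4.0) in T or NK cell-like and 5.51 in B lineage-like cells, 15.9 and 26.0 in neutrophil-like cells with and without coculture, 45.4 in macrophage-like, 50.4 in progenitor-like and 50.6 in eosinophil-like cells. Over all kept cells the figure was 40.0 without coculture and 25.0 in the coculture. Rps27rt, a near-identical copy of Rps27, was also highest in T or NK cell-like and lowest in progenitor-like cells, and reads of the pair cannot be separated with certainty.

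Rpl22 and Rpl22l1 form a second pair, of which Rpl22 is needed for the development of alpha-beta T cells and represses Rpl22l1. Rpl22l1 UMIs per 100 Rpl22 UMIs were 13.5 and 13.4 in neutrophil-like cells without and with coculture, 17.2 in T or NK cell-like and in mature dendritic cell-like cells, 26.7 in B lineage-like, 37.5 in megakaryocyte or platelet-like, 39.7 in macrophage-like and 43.1 in eosinophil-like cells. For Rpl36al and Rpl36a, near-identical proteins of the tRNA exit site, the ratio was highest in mature dendritic cell-like cells (64.5 per 100) and lowest in megakaryocyte or platelet-like cells (20.7). For Rpl7l1, a paralog of Rpl7, it ran from 4.63 in T or NK cell-like to 10.8 in neutrophil-like cells without coculture. The size of such a ratio depends on how well each gene is captured, so it is read across classes only.

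**Figure D5:**
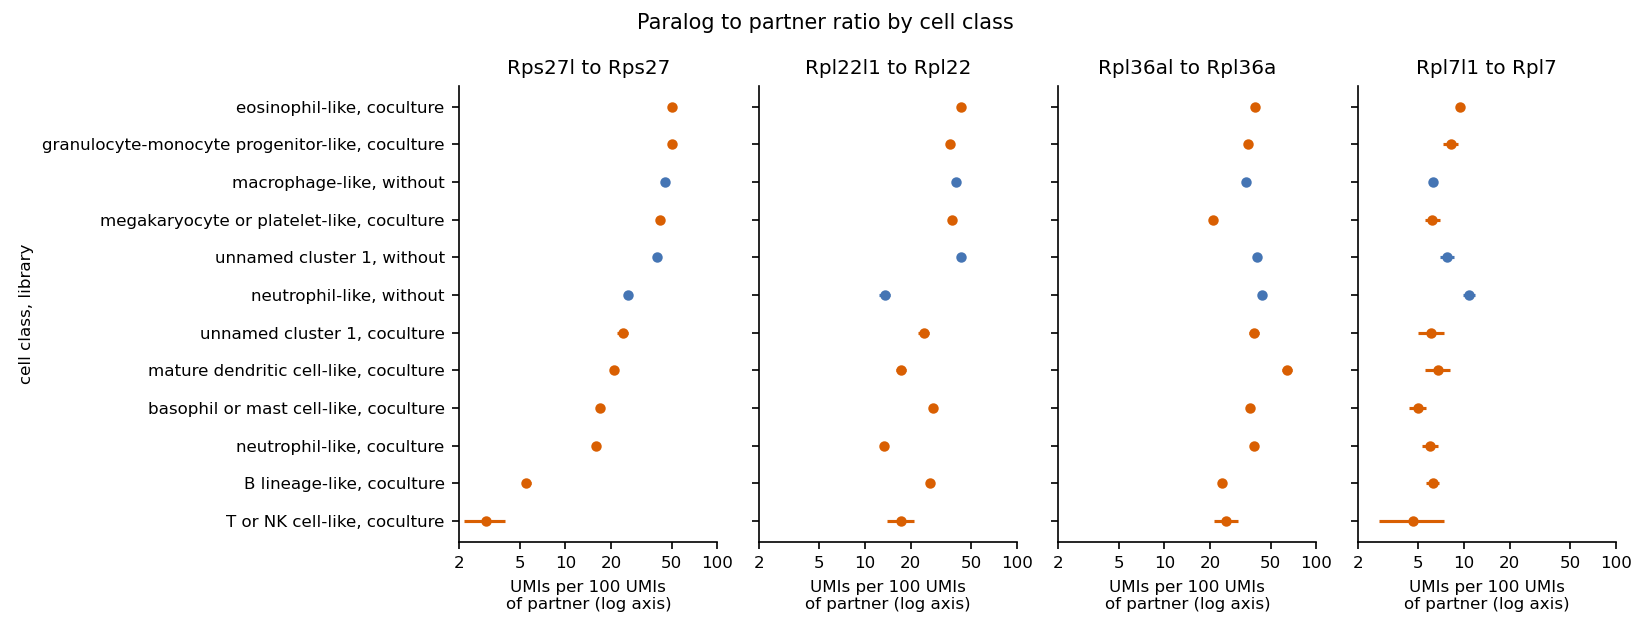
UMIs of a paralog per 100 UMIs of its partner (log axis) in each class and library for 4 pairs, with 95% counting intervals; orange is the coculture and blue the library without coculture. Rps27l per Rps27 spans from 2.98 to 50.6, while Rpl7l1 per Rpl7 stays between 4.63 and 10.8.

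Other members ranged widely as well. Rps26 was 1.55% of the pool in mature dendritic cell-like cells and 0.491% in macrophage-like cells. Rpl12, a stalk-base protein next to Rplp0, was 2.14% in T or NK cell-like and 0.806% in mature dendritic cell-like cells. Rps2 was 2.25% in progenitor-like and 2.09% in eosinophil-like cells, and 0.752% in T or NK cell-like and 0.725% in mature dendritic cell-like cells. Rpl3, which helps form the peptidyl transferase centre, was 1.25% in megakaryocyte or platelet-like and 0.461% in neutrophil-like cells without coculture.

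Genes that make or use ribosomes were set beside the members over all kept cells, where 23% of the measured genes passed 1.5-fold upward and 21.8% downward. Of 44 measured ribosome biogenesis factors, 23 were at least 1.5-fold higher and 1 lower, with a median log2 ratio of 0.62. Ncl (nucleolin) was at 217 and 596 CPM (1.46) and Rrp1b at 22.4 and 64.6 CPM (1.53), while Heatr1 was at 10.8 and 6.98 CPM (-0.63) and Pes1 at 54.4 and 41.8 CPM (-0.38). In neutrophil-like cells 3 of 39 measured factors were at least 1.5-fold higher and 12 lower (18.6% and 17.7% of all measured genes), with a median of -0.27, where the members' median was 0.56. In cluster 1, whose cells came apart by library in some clusterings, 0 of 44 were higher and 36 lower (21.8% and 20.6%), with a median of -0.92. In progenitor-like cluster 5, 27 of 45 were higher and 0 lower (34% and 13%), with a median of 0.75, and in cluster 7, 2 of 35 were higher and 9 lower (22.3% and 19.4%), with a median of -0.11. The direction over all kept cells was thus not that of each set.

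Of 12 measured host genes of small nucleolar RNAs, which guide modification of ribosomal RNA and many of which have TOP starts, 8 were at least 1.5-fold higher and 0 lower, with Snhg6 at 37.4 and 127 CPM (1.77) and Snhg1 at 47.9 and 116 CPM (1.27). The lowest were Snhg20 (-0.37) and Snhg3 (0.08). Host genes higher and lower by that fold were 6 and 2 of 11 in neutrophil-like cells, 0 and 7 of 12 in cluster 1 (median -0.66), 5 and 1 of 12 in cluster 5 (median 0.09) and 2 and 2 of 10 in cluster 7. Of 19 translation factors and other known TOP mRNAs, 4 were at least 1.5-fold higher and 0 lower (median 0.42), with Hnrnpa1 at 146 and 403 CPM (1.47), Eef1d at 189 and 314 CPM (0.73), Nap1l1 at 220 and 183 CPM (-0.26) and Tpt1, an abundant TOP mRNA, at 6348 and 4849 CPM (-0.39). Of 25 other initiation factors, 5 were higher and 1 lower by that fold (median 0.27), with Eif3m at 0.90, Eif4a2 at 0.84, Eif2s3x at -0.37 and Eif4g2 at -0.64. Of 12 genes of the RNA polymerase I machinery 2 were higher (median 0.35), Taf1d (0.84) and Taf1b (0.77), and the lowest were Cd3eap (-0.43) and Ubtf (-0.28).

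Regulators lay on both sides of 0. Of 17 measured genes of mTORC1 and TOP control, 1 was at least 1.5-fold higher and 4 lower (median -0.01), with Deptor, an mTOR inhibitor, at 34.2 and 7.56 CPM (-2.18) and Cnbp, which binds TOP mRNAs, at 184 and 284 CPM (0.62). Larp4b had a ratio of -0.72 and Rptor, the scaffold of mTORC1, of 0.50. Genes of this list higher and lower by that fold were 2 and 1 of 16 in neutrophil-like cells and 1 and 2 of 17 in cluster 1. They were 3 and 1 of 15 in cluster 5 and 2 and 3 of 13 in cluster 7. Deptor had the highest ratio of the list in neutrophil-like cells and in cluster 1, at least 2-fold higher in the coculture. Its direction over all kept cells was thus not that of these sets. Of 8 in the Myc network, 2 were higher and 2 lower. Myc was at 31.0 and 51.2 CPM (0.73), and the Myc antagonists Mxd4 and Mxd1 had ratios of -0.95 and -0.69. Mxd1 had the lowest ratio of this list in neutrophil-like cells but was among the 2 highest in clusters 1 and 7. Mycn had 0 UMIs without coculture and 13.5 CPM with it. Its log2 ratio was 6.97 with the floor of 3 UMIs in place of 0, and its counting interval began at 6.66. Of 12 p53 targets and related genes, 2 were higher and 3 lower, with Zmat3 at -1.38, Ccng1 at -1.14, Phlda3 at 0.60 and Sesn1 at 0.63. For comparison, 12 of 76 measured mitochondrial ribosomal proteins were at least 1.5-fold higher and 2 lower (median 0.34), from Mrps2 (-0.61) and Mrpl4 (-0.60) to Mrps27 (0.97) and Mrps28 (1.07). Of 14 core proteasome subunits 2 were higher and 0 lower (median 0.44), from Psmb5 (0.03) and Psmb6 (0.04) to Psma6 (0.59) and Psma5 (0.66).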

How the data were processed

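The authors deposited UMI counts per gene and cell barcode, not normalized, made with a 3' droplet kit per the labels' protocols. Cell Ranger, bcl2fastq and the build mm10 are named per the submitters' processing notes, and software version 3.1.0 per the file headers. The sources used here give neither the annotation release nor the cell calling rule. Counts were summed over kept cells of a library, class or cluster and given as CPM. Ratios carry exact conditional binomial intervals, tested on simulated data, and shares Clopper-Pearson intervals, both at 95% and for counting error only, with UMIs treated as independent. In log2 ratios, a gene with fewer than 3 UMIs in the compared cells of a library was set to 3 UMIs. In the coculture cells of cluster 7 (209034 UMIs) this floor lay above the CPM filter of 10. It affects the shares of all measured genes past a fold there. With 1 library per group no test was run, and a call is a fold of 1.5 or 2.

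Cells were clustered without the members (scanpy 1.11.5, 2000 variable genes, 30 components, 15 neighbours, Leiden resolution 0.8) and named from 16 marker sets; how markers were scored was decided with the data in view. Members, lists and markers were chosen with earlier results of these data known. Named genes are the 5 members with the highest and the 5 with the lowest library ratio, the 5 with the widest range of pool share, the role groups, and the 2 highest and 2 lowest of each other list; Rpl3, Rpl12, Rpl38 and Rpl31 in clusters, Rpl41 and Rps4x were named after their values were seen. TMM factors came from edgeR 4.0.16. Positions are from GENCODE M21 (GRCm38), promoters from RefSeq. The values of a few genes are not reported here. Rack1, Zfas1 and Snhg15 were matched by identifier. Where genes have near-identical copies, the authors' counting could split reads.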

Additional observations from a re-analysis of the deposited data

How the results depend on the processing

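No paired analysis was possible because each group has 1 library. All differences rest on these libraries, and the named class values rest on clusters whose cells differ in depth. The log2 ratio of the summed share (0.59) was 0.60 over all deposited barcodes, 0.58 under a stricter filter (1000 genes, 5% mitochondrial UMIs), 0.66 without the 5% of barcodes with most UMIs, 0.57 with mitochondrial genes out of the total, 0.44 with the 50 most abundant other genes also out, 1.04 as a mean over cells, 1.14 as a median and 1.40 in cells of 3000 to 10000 UMIs. The median member ratio (0.64) was, in the order of those filters and totals, 0.62, 0.70, 0.62 and 0.49 from the stricter filter on, 0.50 with TMM factors, 0.61 with members of at least 100 UMIs (where 1 was at least 1.5-fold lower) and 1.05 as a mean over cells. The count past 1.5-fold (48) was 25 without mitochondrial and top genes, 26 with TMM factors and 80 as a mean over cells. The log2 span of classes (1.83) was 1.87 with all barcodes, 1.95 with the stricter filter, 1.38 without mitochondrial and top genes, 2.19 as a mean over cells, 2.04 in the depth window, 2.08 at resolution 0.4 and 1.87 with members among the clustering genes. The neutrophil-like ratio (0.51) was, for the same settings, 0.50 with all barcodes, 0.14 with the stricter filter (0.49 with class names kept), 0.44 without the deepest barcodes, 0.50 and 0.35 for the 2 totals, 0.70 as a mean over cells and in the depth window, 0.40 at resolution 0.4 (where only 747 and 25 cells kept the name, against 1074 and 457), 0.49 at resolution 1.2, and 0.53 with members in the clustering. The progenitor-like ratio (0.12) was 0.14 without the deepest barcodes, -0.10 without mitochondrial and top genes, 0.18 as a mean over cells, and 0.088 and 0.082 at resolutions 0.4 and 1.2; in the depth window too few cells were left. The count of members with a 2-fold range of pool share stayed within 1.5 times its value of 25 in each setting run. Over all members, signs changed for Rps27l and Rps19bp1 with TMM factors and without top genes, and for Rplp0 and Rps27l as a mean over cells.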
